A study of Mus musculus with 35 samples.

Results

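The genes described here are 10 cyclins, cyclin-dependent kinases (CDKs) and CDK inhibitors, chosen by name: Ccnd1, Ccnd2, Ccne1, Ccne2, Ccna2, Ccnb1, Ccnb2, Cdk1, Cdkn1b and Cdkn2c. Of these, 8 had a probe set that the array annotation assigns to them alone, among 18820 genes with such a probe set. No probe set was listed with Ccnb1 in the annotation used here, and the probe set of Ccne2 is shared with its neighbour Ints8, so these genes enter no count. Liver RNA was measured on 35 Affymetrix mouse arrays, and each value is a log2 RMA signal, so that 1 unit is a doubling. Levels of different probe sets are not comparable with each other, and only differences of the same gene between arrays are compared.

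The arrays fall into 8 groups by the labels. DEN tumors (5 arrays) and DEN non-tumorous liver, abbreviated NTL (5), come from 9-month-old mice that had received the liver carcinogen diethylnitrosamine by injection at 10 mg per kg at day 15. DEN controls (5) are livers of untreated mice that the labels call matched in sex and age. LT tumors (3) and LT NTL (5) come from tg1223 mice, a strain with liver-specific lymphotoxin alpha and beta (LTα/β), at 12 months. MYC tumors (5) and MYC NTL (3) come from TRE-MYC mice crossed to LAP-tTA, a driver from a liver promoter, in which doxycycline in the chow (200 mg per kg) kept the MYC transgene silent until week 8. The LT and MYC groups share 4 transgene-negative controls, called shared controls here. Tumor and NTL arrays of a model carry no common mouse identifier, so tissue and animal cannot be told apart, and the identifiers of the 3 MYC NTL mice begin with WT. By their identifiers the 5 DEN tumors came from 3 mice (replicates 1 and 4, and 3 and 5, pair up) and the 3 LT tumors from 2 mice (replicates 1 and 2).

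Hepatocyte markers were high in every group, with list means of 12.7 to 13.2 per array. Xist, transcribed from the inactive X in cells with more than a single X chromosome, split the arrays into 9 with values from 11.7 upward and 26 with values up to 6.24. High values came from all 3 LT tumors, from 4 LT NTL arrays (replicate 2 was the exception) and from replicate 3 in both control groups. No DEN tumor, DEN NTL or MYC array had high Xist, so replicate 3 of the DEN controls goes against the sex match in the labels, and the shared controls hold both classes. Of the genes that the models overexpress, Ltb averaged 6.96 ± 0.54 in LT tumors, 5.71 ± 0.28 in LT NTL and 5.08 ± 0.15 in shared controls (SD, n = 3, 5 and 4), and it was also 6.69 ± 1.17 in DEN tumors. Lta was dim, at 4.38 ± 0.05 in LT tumors, 4.77 ± 0.26 in LT NTL and 4.55 ± 0.21 in shared controls, and was not higher in the tumors. Myc averaged 9.65 ± 0.59 in MYC tumors, 7.72 ± 1.58 in MYC NTL and 7.83 ± 1.15 in shared controls (SD, n = 5, 3 and 4).

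Cyclins are the regulatory subunits of CDKs, and their levels rise and fall as a cell passes through its cycle. D cyclins with CDK4 or CDK6 answer growth signals in G1 and phosphorylate the retinoblastoma protein, which frees E2F factors. E cyclins with CDK2 then drive entry into S phase, cyclin A2 acts in S phase and into mitosis, and B cyclins with CDK1 start mitosis. Inhibitors of the Cip/Kip family such as p27 bind cyclin-CDK complexes, and INK4 proteins such as p18 bind CDK4 and CDK6. Most hepatocytes of an adult liver rest outside the cycle, and cyclin D1 induction is a known early step when they re-enter it after partial hepatectomy.

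Promoters of genes expressed in G2 and mitosis are known for the cell cycle genes homology region (CHR), which is bound by the DREAM and MuvB complexes, and for CCAAT boxes, which are bound by NF-Y. Promoters of G1/S genes often carry E2F sites. RefSeq windows of GRCm38.p6, from 250 bases before to 50 after a gene's start, matched 6 of the 10 genes: Ccnb1, Ccnb2, Ccne1, Cdk1, Cdkn1b and Cdkn2c. Those of Ccnb2, Cdk1 and Ccne1 are shown 5′ to 3′ with matches in capitals. All 3 genes had the same order of tumor group means, with MYC tumors highest, then DEN tumors, then LT tumors. All 3 genes lie on the minus strand, Ccnb2 at chr9:70421505-70421804, Cdk1 at chr10:69352863-69353162 and Ccne1 at chr7:38107441-38107740.

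Ccnb2: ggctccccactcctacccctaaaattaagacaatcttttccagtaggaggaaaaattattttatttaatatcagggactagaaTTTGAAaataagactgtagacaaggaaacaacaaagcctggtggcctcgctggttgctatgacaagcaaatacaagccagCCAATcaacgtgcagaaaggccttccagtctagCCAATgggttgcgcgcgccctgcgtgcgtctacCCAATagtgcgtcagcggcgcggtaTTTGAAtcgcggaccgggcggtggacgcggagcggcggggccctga
Cdk1: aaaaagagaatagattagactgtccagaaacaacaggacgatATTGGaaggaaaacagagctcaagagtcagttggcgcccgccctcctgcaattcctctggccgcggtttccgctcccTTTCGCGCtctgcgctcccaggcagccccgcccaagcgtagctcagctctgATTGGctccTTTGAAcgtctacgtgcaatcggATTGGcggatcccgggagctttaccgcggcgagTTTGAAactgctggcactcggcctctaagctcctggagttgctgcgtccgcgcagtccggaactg
Ccne1: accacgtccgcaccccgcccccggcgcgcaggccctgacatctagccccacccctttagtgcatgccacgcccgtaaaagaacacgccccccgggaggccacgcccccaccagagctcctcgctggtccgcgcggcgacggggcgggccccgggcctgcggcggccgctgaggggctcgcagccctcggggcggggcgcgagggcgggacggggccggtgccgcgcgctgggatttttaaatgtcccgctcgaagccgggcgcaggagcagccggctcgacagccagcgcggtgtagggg

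The letters searched on both strands were TTTGAA or TTCGAA for the CHR, CCAAT, and TTTCCCGC, TTTGGCGC, TTTCGCGC or TTTGCCGC for E2F. No match overlapped another in these windows. The Ccnb2 window held 2 CHR matches, with first bases at -167 and 5 from the start, and 3 CCAAT matches at -87, -54 and -21. The Cdk1 window held 2 CHR matches at -71 and -15, 3 CCAAT matches on the opposite strand at -208, -80 and -48, and an E2F match at -131. The Ccne1 window held none of these letters. Among 32851 RefSeq windows of this length, 19.2% held a CHR match, 37.4% a CCAAT match, 3.37% at least 3 CCAAT matches, 7.53% both a CHR and a CCAAT match, and 2.27% an E2F match. Windows of Ccnb1 and Cdkn1b held 2 and 3 CCAAT matches and no CHR match. A match is a description of letters and no evidence of binding.

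**Figure D1:**
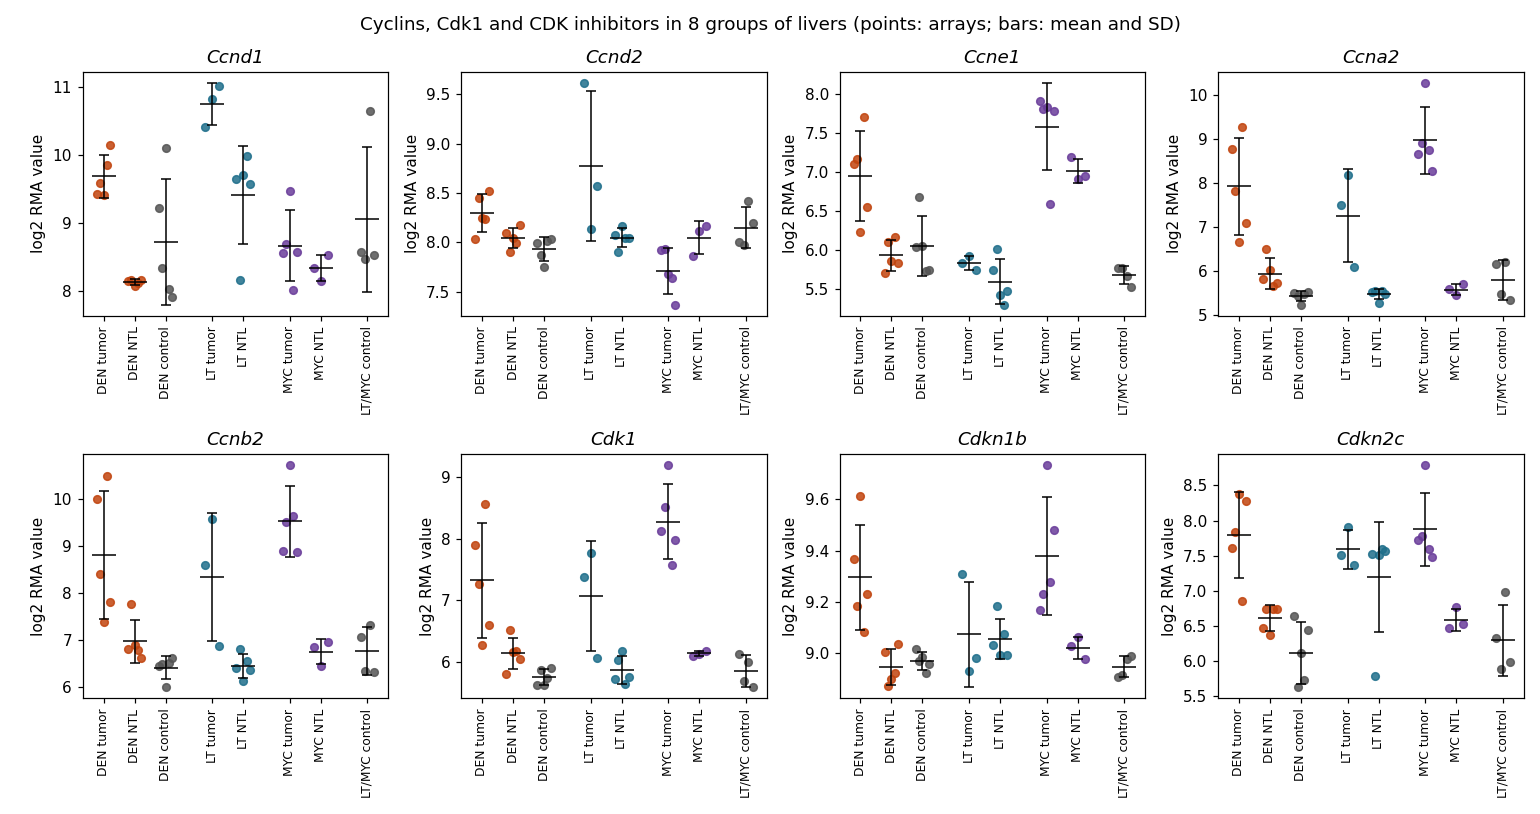
Log2 RMA value (y axis) of the 8 measured genes in the 8 groups (x axis), with 1 point per array and the group mean with its SD. Among the tumor groups, Ccne1, Ccna2, Ccnb2, Cdk1, Cdkn1b and Cdkn2c averaged highest in MYC tumors, then DEN tumors, then LT tumors. Ccnd1 (10.8) and Ccnd2 averaged highest in LT tumors, and Ccne1 was also high in MYC NTL.

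Ccnd1 (chromosome 7, 144929931 to 144939831, GRCm38.p6) encodes cyclin D1, which activates CDK4 and CDK6 in G1. In DEN tumors it measured 9.43, 9.58, 9.42, 9.86 and 10.2, against 8.16, 8.17, 8.07, 8.12 and 8.17 in DEN NTL. Every DEN tumor lay above every DEN NTL array. The rise was 1.56 ± 0.38 log2 units (standard error of the limma fit, 5 against 5 arrays, adjusted p = 0.00191), or 2.94-fold. In LT tumors Ccnd1 measured 10.4, 10.8 and 11.0, against 9.66, 8.16, 9.70, 9.99 and 9.58 in LT NTL. The groups did not overlap, and the rise was 1.34 ± 0.44 (3 against 5, adjusted p = 0.0282). This call was lost without LT NTL replicate 2 (1.02, adjusted p = 0.0896) and without any of the 3 LT tumors (1.20 to 1.51, adjusted p = 0.0597 to 0.0785). In MYC tumors Ccnd1 measured 8.56, 8.70, 9.48, 8.02 and 8.58, against 8.34, 8.15 and 8.53 in MYC NTL, and the difference of 0.33 ± 0.44 missed the threshold (5 against 3, adjusted p = 0.651). MYC tumors therefore overlapped their NTL for this gene, and LT and DEN tumors did not. A second probe set, shared by Ccnd1 and LTO1, was lower in DEN tumors (6.15 ± 0.22) than in DEN NTL (6.41 ± 0.12; SD). It averaged 6.60 ± 0.11 in LT tumors and 6.39 ± 0.18 in LT NTL, and 6.04 ± 0.27 in MYC tumors and 6.35 ± 0.16 in MYC NTL. The 2 genes cannot be told apart in these values, and no test was made of them.

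Ccnd1 also varied among tumor-free livers, where high values went with high Xist. DEN controls measured 10.1 in replicate 3, which had high Xist, and 7.92 to 9.23 in the other 4 arrays. Shared controls measured 10.7 in replicate 3, again the array with high Xist, and 8.47 to 8.57 in the other 3. In LT NTL the order was the same, with 9.58 to 9.99 in the 4 arrays with high Xist and 8.16 in replicate 2, which lacked it. With the Xist class as a covariate, the LT tumor difference from LT NTL was 0.98 (adjusted p = 0.00475), and all 3 LT tumors stayed above the 4 LT NTL arrays of the same class. Against shared controls the LT tumor rise of 1.70 ± 0.46 (3 against 4, adjusted p = 0.0113) became 0.35 (adjusted p = 0.517) with this covariate. The DEN tumor difference from DEN controls was 0.96 ± 0.38 and missed the threshold (adjusted p = 0.0519), while with the covariate it was 1.32 (adjusted p = 1.25e-05) and without control replicate 3 it was 1.31 (adjusted p = 0.00589). In the order of group means, LT tumors (10.8 ± 0.31) came before DEN tumors (9.69 ± 0.32), LT NTL (9.42 ± 0.72), shared controls (9.06 ± 1.07), DEN controls (8.73 ± 0.92), MYC tumors (8.67 ± 0.52), MYC NTL (8.34 ± 0.19) and DEN NTL (8.13 ± 0.04; SD throughout). Of these neighbours, LT and DEN tumors had ranges that did not touch, and the ranges of the others overlapped.

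**Figure D2:**
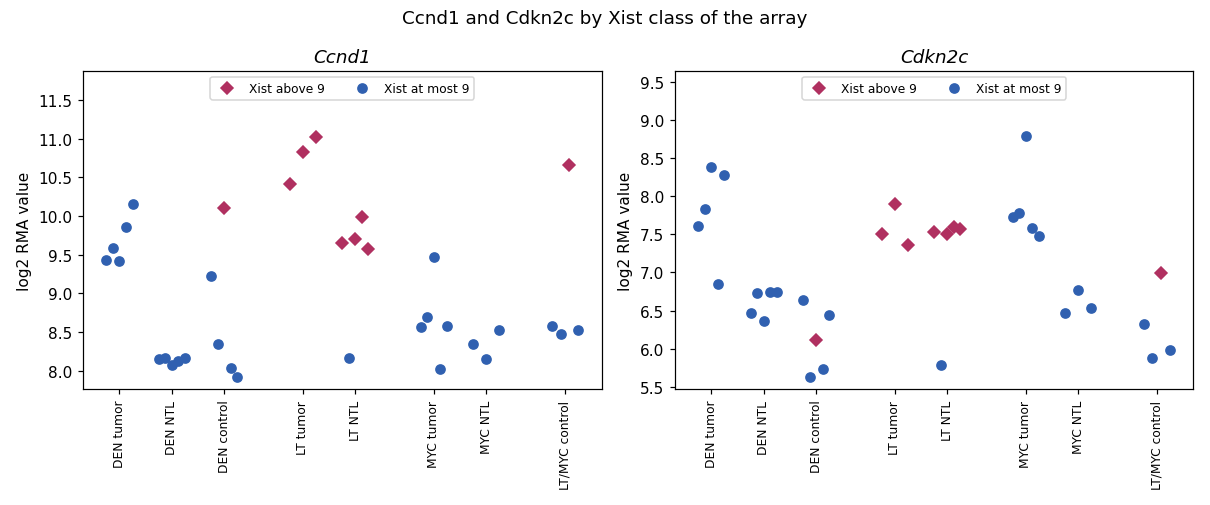
Log2 RMA value (y axis) of Ccnd1 and Cdkn2c per array in the 8 groups (x axis), with diamonds for the 9 arrays with Xist above 9 and circles for the other 26. In both control groups the diamond is the highest Ccnd1 value (10.1 and 10.7), and in LT NTL the circle is the lowest value of both genes (8.16 and 5.79).

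Ccnd2 (chromosome 6, 127125162 to 127152188), which encodes the related cyclin D2, moved less. In LT tumors it measured 9.61, 8.13 and 8.57, against 8.07, 7.90, 8.17, 8.05 and 8.05 in LT NTL. The rise of 0.73 ± 0.18 (3 against 5, adjusted p = 0.00517) rested on LT tumor replicate 1, without which it was 0.31 (adjusted p = 0.202). Markers of stellate cells and fibroblasts were also highest in that array, with a list mean of 9.74, against 8.02 and 7.58 in LT tumor replicates 2 and 3 and 6.99 to 7.46 in LT NTL. Whether those cells account for the Ccnd2 value was not tested. In DEN tumors Ccnd2 measured 8.04 to 8.52 against 7.90 to 8.18 in DEN NTL, a difference of 0.26 ± 0.16 (adjusted p = 0.227). In MYC tumors it measured 7.93, 7.93, 7.69, 7.64 and 7.37, against 7.86, 8.12 and 8.16 in MYC NTL, a difference of -0.34 ± 0.18 (adjusted p = 0.201). With arrays of 1 mouse averaged before the fit, this difference was called lower (adjusted p = 0.0345), as was that from shared controls (-0.44, adjusted p = 0.00346). No mouse repeats in the MYC or shared control groups, so both differences were the same in the 2 fits. The averaging reached these p-values only through the spread that the fit pools over all groups.

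Ccne1 (chromosome 7, 38097984 to 38107490) encodes cyclin E1, the partner of CDK2 at entry into S phase. In MYC tumors it measured 7.91, 7.81, 7.84, 6.59 and 7.79, in MYC NTL 7.20, 6.91 and 6.95, and in shared controls 5.77, 5.77, 5.66 and 5.52. Both MYC groups lay above every shared control, as did 7.85% of all genes in MYC tumors and 9.87% in MYC NTL. Against these controls Ccne1 was higher by 1.91 ± 0.24 in MYC tumors (5 against 4, adjusted p = 8.64e-07) and by 1.34 ± 0.27 in MYC NTL (3 against 4, adjusted p = 0.00357), or 3.75-fold and 2.53-fold. MYC tumors and MYC NTL differed by 0.57 ± 0.26, which did not pass the test (adjusted p = 0.124). Replicate 4 was the low MYC tumor, and without it the difference was 0.82 (adjusted p = 0.0106). In DEN tumors Ccne1 measured 7.10, 7.16, 6.23, 7.71 and 6.55, against 5.70, 6.10, 5.85, 6.16 and 5.83 in DEN NTL, with no overlap and a rise of 1.02 ± 0.23 (5 against 5, adjusted p = 0.000772). LT tumors measured 5.83, 5.92 and 5.74, within the range of LT NTL (5.29 to 6.01), and differed by 0.24 ± 0.26 (adjusted p = 0.572).

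The probe set shared by Ints8 and Ccne2, the gene of the other E cyclin (chromosome 4, 11190433 to 11204779), was dim. It averaged 5.14 ± 0.32 in MYC tumors and 5.38 ± 0.24 in MYC NTL, 4.91 ± 0.12 in LT tumors and 4.62 ± 0.19 in LT NTL, against 4.47 ± 0.19 in shared controls, and 4.52 ± 0.29, 4.51 ± 0.26 and 4.82 ± 0.23 in DEN tumors, DEN NTL and DEN controls (SD). The probe set of Ints8 alone averaged 7.76 ± 0.16 in MYC tumors, 8.07 ± 0.06 in MYC NTL and 7.84 ± 0.21 in shared controls. Ccne2 and Ints8 cannot be told apart in the shared values, and no test was made of them.

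Ccna2 (chromosome 3, 36564865 to 36573038), encoding cyclin A2, had the widest span of group means among the 8 genes, 3.53 log2 units. In MYC tumors it measured 8.65, 8.90, 10.3, 8.76 and 8.28, against 5.59, 5.46 and 5.71 in MYC NTL. The rise was 3.38 ± 0.44 (5 against 3, adjusted p = 1.94e-06), or 10.4-fold. In DEN tumors Ccna2 measured 8.78, 7.83, 6.67, 9.27 and 7.09, against 5.82, 6.51, 6.03, 5.66 and 5.73 in DEN NTL, and rose by 1.98 ± 0.38 (adjusted p = 0.000138). In LT tumors it measured 7.50, 8.18 and 6.10, against 5.29 to 5.56 in LT NTL, and rose by 1.78 ± 0.44 (adjusted p = 0.0039). Every tumor array lay above every NTL array of its model. The LT call was lost without LT tumor replicate 2 (1.32, adjusted p = 0.0551).

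Ccnb2 (chromosome 9, 70407689 to 70421554) encodes cyclin B2, and Cdk1 (chromosome 10, 69335146 to 69352912) encodes its kinase partner in mitosis. Both gave the order of tumor groups seen for Ccna2, as did Ccne1, Cdkn1b and Cdkn2c. Ccnb2 measured 8.89, 9.50, 10.7, 9.63 and 8.86 in MYC tumors, against 6.85, 6.43 and 6.94 in MYC NTL, a rise of 2.78 ± 0.53 (adjusted p = 0.000298). In DEN tumors it measured 9.98, 8.39, 7.38, 10.5 and 7.80, against 6.79, 7.76, 6.88, 6.78 and 6.62 in DEN NTL. DEN tumor replicate 3 lay below DEN NTL replicate 2, and the rise was 1.84 ± 0.46 (adjusted p = 0.00232). In LT tumors Ccnb2 measured 8.58, 9.56 and 6.86, against 6.11 to 6.81 in LT NTL, and rose by 1.89 ± 0.53 (adjusted p = 0.0106).

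Cdk1 measured 8.13, 8.52, 9.20, 7.58 and 7.97 in MYC tumors, against 6.10, 6.13 and 6.18 in MYC NTL, a rise of 2.14 ± 0.36 (adjusted p = 8.06e-05). It rose by 1.19 ± 0.32 in DEN tumors (adjusted p = 0.00418), with 7.90, 7.27, 6.27, 8.57 and 6.59 in the tumors and 5.80 to 6.51 in DEN NTL. In LT tumors the rise was 1.21 ± 0.36 (adjusted p = 0.0175), with 7.37, 7.77 and 6.06 in the tumors and 5.64 to 6.18 in LT NTL. LT tumor replicate 3 and DEN tumor replicate 3 fell within the range of their NTL for Cdk1. The LT calls of Ccnb2 and Cdk1 were lost without LT tumor replicate 1 and without replicate 2, the 2 arrays of 1 mouse, and without replicate 2 the changes were 1.28 and 0.85 (adjusted p = 0.13 and 0.154). In bulk tissue, more dividing cells and more RNA per dividing cell cannot be told apart.

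**Figure D3:**
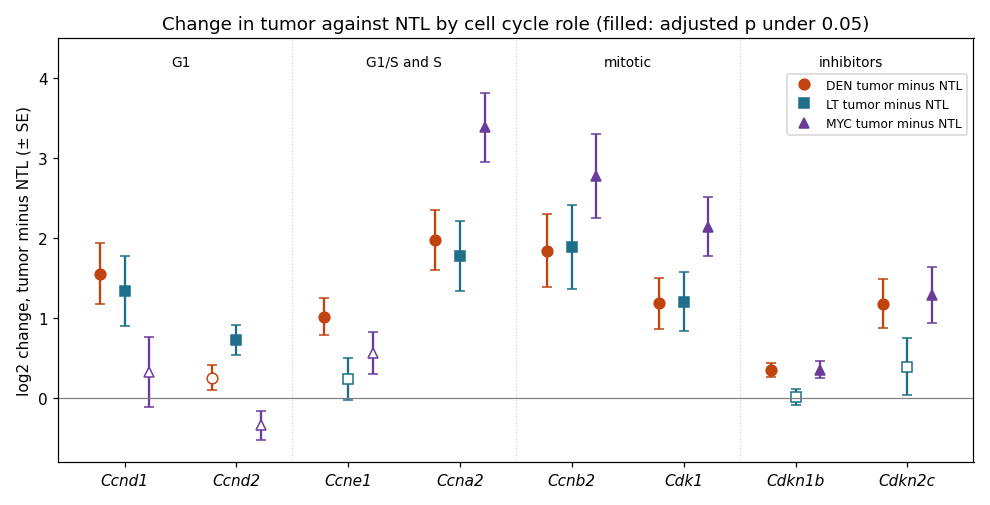
Log2 change of each gene, tumor minus NTL (y axis), in the 3 models, as the limma estimate with its standard error, ordered by role. Filled symbols passed an adjusted p of 0.05. Ccna2, Ccnb2 and Cdk1 passed in all 3 models and are largest in MYC (3.38, 2.78 and 2.14), while Ccnd1 passed in DEN and LT alone.

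Cdkn1b (chromosome 6, 134920401 to 134925525) encodes the Cip/Kip inhibitor p27. Its changes were small, and its group means spanned 0.43 log2 units. It measured 9.37, 9.18, 9.61, 9.08 and 9.23 in DEN tumors, against 9.01, 8.87, 8.90, 8.92 and 9.04 in DEN NTL, a rise of 0.35 ± 0.09 (adjusted p = 0.00283). In MYC tumors it measured 9.17, 9.23, 9.73, 9.28 and 9.48, against 9.03, 9.06 and 8.97 in MYC NTL, a rise of 0.36 ± 0.10 (adjusted p = 0.0118). Neither pair of groups overlapped. The MYC call was lost without MYC NTL replicate 3 (adjusted p = 0.0534) and with the mean of the gene's 2 probe sets (0.29, adjusted p = 0.0599). LT tumors (9.31, 8.93 and 8.98) overlapped LT NTL (8.99 to 9.18), with a difference of 0.02 ± 0.10.

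Cdkn2c (chromosome 4, 109660876 to 109666756) encodes the INK4 inhibitor p18, which binds CDK4 and CDK6. In DEN tumors it measured 7.61, 7.84, 8.38, 6.85 and 8.27, against 6.46, 6.74, 6.37, 6.74 and 6.74 in DEN NTL, a rise of 1.18 ± 0.31 (adjusted p = 0.00331). In MYC tumors it measured 7.72, 7.78, 8.79, 7.59 and 7.49, against 6.46, 6.76 and 6.53 in MYC NTL, a rise of 1.29 ± 0.35 (adjusted p = 0.00867). Neither pair overlapped. LT tumors measured 7.51, 7.90 and 7.36, against 7.53, 5.79, 7.51, 7.59 and 7.57 in LT NTL, with a difference of 0.39 ± 0.35 (adjusted p = 0.479). LT NTL replicate 2, the array without high Xist, stood far below the other 4. Without it, Cdkn2c was 1.26 higher in LT NTL than in shared controls (adjusted p = 0.0117), against 0.90 ± 0.32 with it (5 against 4, adjusted p = 0.145). With the Xist class as a covariate this difference was 0.41 (adjusted p = 0.672). The control groups did not share a pattern. The array with high Xist measured 6.99 in shared controls, above the others (5.88 to 6.33). In DEN controls it measured 6.12, within the range of the others (5.63 to 6.64).

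The counts of called genes followed these values. Of the 8 genes, 7 were called higher in DEN tumors than in DEN NTL, against 15.6% of all 18820 genes, and Ccnd2 was not called. Their median change was 1.18, against a median of -0.04 over all genes. In LT tumors against LT NTL 5 were called higher (Ccnd1, Ccnd2, Ccna2, Ccnb2 and Cdk1), against 10.7% of all genes, with medians of 0.97 and -0.03. With arrays of 1 mouse averaged 2 of these 8 genes were called in LT, and 1 when LT tumors and LT NTL were fitted alone. In MYC tumors against MYC NTL 5 were called higher (Ccna2, Ccnb2, Cdk1, Cdkn1b and Cdkn2c), against 11.5% of all genes, with medians of 0.93 and -0.03. In this fit none of the 8 was called lower, against 16.7% of all genes in DEN, 9.73% in LT and 10.3% in MYC. Groups did not overlap for 5 genes in DEN (10.7% of all genes), 3 in LT (7.4%) and 5 in MYC (13%), each higher in tumors.

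By role, the 2 mitotic genes had a median tumor minus NTL change of 1.51 in DEN, 1.55 in LT and 2.46 in MYC. The 2 D cyclins had medians of 0.91 in DEN, 1.03 in LT and -0.01 in MYC. Ccne1 and Ccna2 had medians of 1.50 in DEN, 1.01 in LT and 1.97 in MYC, and the 2 inhibitors of 0.77, 0.21 and 0.82. The models were then compared in these changes directly. Between LT and MYC 1 of the 8 genes was called (12.4% of all genes either way): the Ccnd2 change was 1.06 ± 0.26 higher in LT (adjusted p = 0.00743), or 0.64 (adjusted p = 0.0316) without LT tumor replicate 1. Fitted on these groups alone, its adjusted p was 0.0669. Between DEN and MYC none was called with limma (15.1% of all genes), with 3 at an unadjusted p under 0.05. The Ccnd1 change was 1.23 ± 0.58 higher in DEN (adjusted p = 0.163), and the Ccna2 change was -1.41 ± 0.58 (adjusted p = 0.101). With the Xist covariate the Ccnd1 estimate stayed at 1.23, with an adjusted p of 0.00734. None of the groups in this contrast held an array with high Xist, so the covariate altered only the spread pooled over all groups. Without DEN tumor replicate 4 the Ccna2 difference was -1.74 (adjusted p = 0.0263) and that of Cdk1 -1.27 (adjusted p = 0.0465). Between DEN and LT none was called with limma (13.9% of all genes), with 2 at an unadjusted p under 0.05. The share of all genes at an unadjusted p under 0.05 was not computed, so no background stands beside the unadjusted counts.

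Against controls, 6 of the 8 genes were called higher in DEN tumors (15% of all genes), and the exceptions were Ccnd1 and Ccnd2. Ccnd2 did not overlap between DEN tumors and DEN controls (0.37 ± 0.16, adjusted p = 0.0824), and it was called with mice averaged (0.39, adjusted p = 0.0116) and with the DEN tumors and controls fitted alone (adjusted p = 0.0183). The Cdkn1b call (0.33 ± 0.09, adjusted p = 0.00497) was lost with the mean of its 2 probe sets (0.13, adjusted p = 0.326). Ccna2 was 2.48 ± 0.38 and Ccnb2 2.41 ± 0.46 higher than in DEN controls, where they measured 5.25 to 5.53 and 5.99 to 6.60. In MYC tumors 6 were called higher than in shared controls (10.2% of all genes), again without Ccnd1 (-0.39 ± 0.40) and Ccnd2 (-0.44 ± 0.17, adjusted p = 0.0652). In LT tumors 6 were called higher than in shared controls (8.78% of all genes), without Ccne1 and Cdkn1b. With the Xist class as a covariate none of the 8 was called in this LT comparison, and with an array left out between 1 and 6 were. With the replicate number as a block, Ccnb2 lost its LT call (1.62, adjusted p = 0.0523, against 1.58 ± 0.55 and 0.0484). LT and MYC tumors share their controls, so these comparisons are not independent of each other.

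NTL was also set against controls. In DEN NTL none of the 8 genes was called with limma, also at an unadjusted p under 0.05, against 0.197% of all genes called either way. Ccna2 measured 5.66 to 6.51 in DEN NTL and 5.25 to 5.53 in DEN controls, and Ccnb2 6.62 to 7.76 and 5.99 to 6.60. For these 2 genes every DEN NTL array lay above every control, which held for 2.21% of all genes. Their differences were 0.51 ± 0.38 and 0.56 ± 0.46. In LT NTL none was called with limma, against 2.41% of all genes called either way. At an unadjusted p under 0.05 there was 1, and the share of all genes at that threshold was not computed. In MYC NTL 1 of the 8, Ccne1, was called higher, against 1.66% of all genes.

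Within tumor groups the genes did not all keep the same order. In DEN tumors Ccna2, Ccnb2 and Cdk1 each ran from replicate 4 as the highest through 1, 2 and 5 to replicate 3, over 2.60, 3.11 and 2.30 log2 units. Cdkn2c ran the opposite way, with replicate 3 highest and replicate 4 lowest. The high arrays 4 and 1 came from 1 mouse and the low arrays 5 and 3 from another. Averaged by mouse, Ccnb2 was 10.2, 8.39 and 7.59 in the 3 DEN tumor mice, and Cdkn2c was 7.23, 7.84 and 8.33 in the same mice. The LT tumor of the second mouse, replicate 3, had the lowest Ccna2, Ccnb2 and Cdk1 of its group and the highest Ccnd1 (11.0). In MYC tumors replicate 3 was highest in Ccnd1, Ccna2, Ccnb2, Cdk1, Cdkn1b and Cdkn2c. With 2 to 5 mice a group, these orders are a description.

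**Figure D4:**
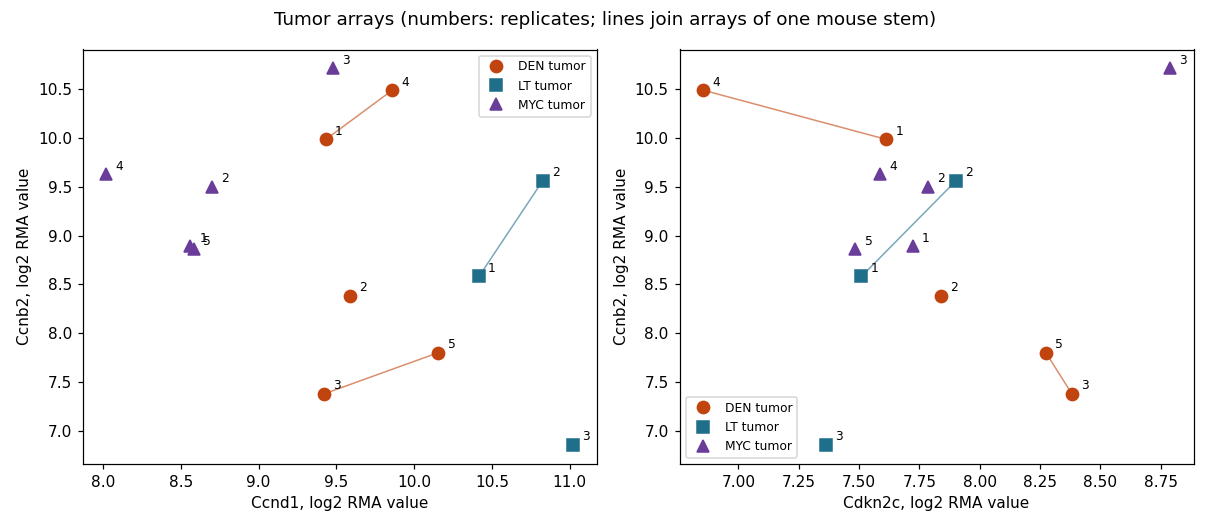
Ccnb2 (y axis, log2 RMA value) against Ccnd1 (left) and Cdkn2c (right) in the 13 tumor arrays, numbered by replicate, with lines between arrays of 1 mouse. LT tumor replicate 3 joins the highest Ccnd1 (11.0) to a Ccnb2 of 6.86, and in the DEN tumors Cdkn2c is lowest where Ccnb2 is highest (replicate 4, 6.85 and 10.5).

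Other regulators of the cycle were read from lists chosen by name. Their counts stand beside the shares of all genes in the same tumor to NTL comparisons, which were 15.6% higher and 16.7% lower in DEN, 10.7% and 9.73% in LT, and 11.5% and 10.3% in MYC. Among 10 other G1 and S cyclins, CDKs and inhibitors, 4 rose and none fell in DEN, 2 rose and 1 fell in LT, and 3 rose and none fell in MYC. Cdkn1a, encoding p21, rose by 4.37 ± 0.48 in MYC tumors, to a mean of 10.5 ± 0.73 against 6.09 ± 0.05 in MYC NTL (adjusted p = 1.87e-07). It rose by 2.38 ± 0.48 in LT tumors (adjusted p = 0.000699). Cdkn2b, encoding the INK4 inhibitor p15, rose by 1.64 ± 0.28 in DEN tumors, which measured 5.85 to 8.84 against 5.43 to 5.72 in DEN NTL. Cdkn2a, the gene of p16 and p19ARF, rose by 0.49 ± 0.09 in DEN tumors and by 0.30 ± 0.10 in MYC tumors. In MYC it was dim (means of 4.65 and 4.35 in tumors and NTL). Its MYC call was lost with arrays centred on their medians (0.22, adjusted p = 0.102). Cdk6 rose by 0.58 ± 0.21 in DEN tumors. Cdk4 rose by 0.34 ± 0.08 in DEN tumors, 0.28 ± 0.09 in LT tumors and 0.37 ± 0.09 in MYC tumors. Ccnd3 fell by 0.38 on the log2 scale in LT tumors.

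Among 13 E2F and pocket protein genes, 3 rose and 2 fell in DEN, 3 rose and 3 fell in LT, and 5 rose and 2 fell in MYC. Rbl1 (p107) rose in each model: DEN tumors gained 1.13 ± 0.20, LT tumors 0.76 ± 0.23 and MYC tumors 1.38 ± 0.23. Rbl2 (p130), the pocket protein of resting cells, changed by -0.50 ± 0.13, -0.68 ± 0.15 and -0.92 ± 0.15, each past the test. E2f1 rose by 0.86 ± 0.21 in MYC tumors and by 0.61 ± 0.21 in LT tumors, E2f3 by 0.62 ± 0.13 in DEN and 0.54 ± 0.15 in MYC tumors, and E2f7, a repressor of the family, by 0.40 ± 0.09 in DEN and 0.34 ± 0.11 in MYC tumors. Rb1 rose by 0.36 ± 0.10 in LT and 0.28 ± 0.10 in MYC tumors. The E2F partner Tfdp2 changed by -0.70 ± 0.18 in LT and -0.62 ± 0.18 in MYC tumors, and E2f6 by -0.31 ± 0.11 in DEN tumors.

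Of 15 activators, partners and degradation factors of CDK1 and CDK2, 13 were measured (Pkmyt1 and Ube2c had no probe set of their own). Of these, DEN tumors raised 3, LT tumors 3 and MYC tumors 6, and none fell. Cdkn3, a phosphatase that acts on CDKs, rose by 1.78 ± 0.33 in DEN tumors, 1.28 ± 0.38 in LT tumors and 2.54 ± 0.38 in MYC tumors. Cdc20, which activates the anaphase-promoting complex, rose by 0.93 ± 0.30 in DEN and 2.30 ± 0.35 in MYC tumors. Of the CDC25 phosphatases, which activate CDKs, Cdc25a rose by 0.41 ± 0.10 in DEN tumors, 0.36 ± 0.11 in LT tumors and 0.80 ± 0.11 in MYC tumors, Cdc25b by 1.03 ± 0.23 in LT tumors and Cdc25c by 0.98 ± 0.20 in MYC tumors. Cdc25c was dim, with means of 4.72 in MYC tumors and 3.74 in MYC NTL.

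Of 15 cyclins and CDKs of transcription, 3 rose and 1 fell in DEN, 1 rose in LT, and 3 fell in MYC tumors. Cdk9, the kinase of the elongation factor P-TEFb, rose by 0.48 ± 0.09 in DEN and 0.37 ± 0.10 in LT tumors. Cdk19, a kinase of the Mediator complex, rose by 0.57 ± 0.13 in DEN tumors and changed by -0.46 ± 0.15 in MYC tumors. Ccnt2, a cyclin partner of CDK9, rose by 0.44 ± 0.08 and the Mediator cyclin Ccnc changed by -0.48 ± 0.11 in DEN tumors, while Ccnt1 changed by -0.53 ± 0.08 in MYC tumors. Of 9 other cyclins, 1 rose and 1 fell in DEN, 1 rose and 3 fell in LT, and 2 rose in MYC. Ccng2 rose by 1.08 ± 0.17 in MYC and 0.61 ± 0.17 in LT tumors, Ccng1, a p53 target, by 0.68 ± 0.21 in MYC tumors, and Ccnyl1 by 0.61 ± 0.13 in DEN tumors. Ccno changed by -0.56 ± 0.13 and Ccnj by -0.48 ± 0.15 in LT tumors, and Ccni by -0.18 ± 0.06 in DEN tumors. Among the largest called changes per list and model, leaving out an array ended 4 of 17 DEN calls, 11 of 15 LT calls and 5 of 15 MYC calls. These counts do not cover Cdk4 in DEN tumors or Cdc25a, E2f7 and Rb1 in MYC tumors. In LT the calls of Cdkn1a, Rbl2, Cdc25b and Ccno stood without any 1 array. All 15 LT calls were lost when LT tumors and LT NTL were fitted alone (those 4 at adjusted p = 0.0784 to 0.108), and 10 with mice averaged.

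Markers of other cell types moved with the LT tumors. Against LT NTL, 6 of 7 macrophage and monocyte markers rose and 1 fell, 4 of 6 stellate cell and fibroblast markers rose, 4 of 6 endothelial markers rose and 1 fell, 3 of 7 T and NK cell and 2 of 5 B and plasma cell markers rose, and no cholangiocyte marker changed. The macrophage list mean ran from 8.60 to 9.47 in LT tumors and from 7.71 to 8.40 in LT NTL. In DEN tumors 4 of 6 endothelial markers rose and 1 fell, 3 of 5 cholangiocyte markers rose, 2 of 6 stellate cell markers rose and 1 fell, 1 of 7 macrophage markers rose and 3 fell, and 1 T and NK cell and 1 B and plasma cell marker fell. In MYC tumors 2 of 7 macrophage and 2 of 6 endothelial markers rose, and 2 of 6 stellate cell markers and 1 of 7 T and NK cell markers fell. Macrophage list means were 7.46 to 8.33 in MYC tumors and 7.52 to 7.80 in MYC NTL. Of 7 hepatocyte markers, 1 fell and 1 rose in DEN tumors, 1 fell in LT tumors and 3 fell in MYC tumors. The part of these cells in the changes of the cyclins was not tested.

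Genes with the most similar pattern were sought among 3494 genes whose group means span at least 1 log2 unit, by Pearson's r over the 8 group means. These values describe points from the same arrays and carry no test. For Ccnb2 they were Mki67 (r = 0.998), Aurkb, Racgap1 and Prr11 (0.996 each). For Ccnd1 they were Tmsb10 (0.975), Cd274 (0.948), Slc1a5 (0.947) and Klri1 (0.942). For Ccnd2 they were Pmepa1 (0.973), Pdgfrb (0.973), Rab31 (0.970) and Plxdc2 (0.968), of which Pdgfrb is a marker of stellate cells and fibroblasts. For Ccne1 they were Dsg1c (0.957), the checkpoint kinase gene Chek1 (0.940), Sae1 (0.934) and Tarbp1 (0.934). Dsg1c averaged 9.10 in MYC tumors, 7.66 in DEN tumors, 7.30 in MYC NTL and 5.72 in shared controls. For Cdkn1b they were Rps12 (0.991), Mir369 (0.978), Stil (0.968) and Brca1 (0.968), and for Cdkn2c Plpp2 (0.932), Acsl4 (0.928), Stmn1 (0.923) and Sinhcaf (0.919).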

How the data were processed

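Total RNA of mouse liver and liver tumors (100 ng a sample) was hybridised to 35 Affymetrix arrays, some from the same mouse. The authors deposited log2 values from RMA, per the submitters' processing notes, with no software version given in the sources used here. RMA forces a common distribution on the arrays, whose medians lay between 5.59 and 5.73. The platform annotation gives 1 gene symbol to 21218 of 35556 probe sets, several to 1881 and none to 12457. Each of 18820 genes was read from its brightest probe set with 1 symbol (1386 had a choice), and dim genes were kept.

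A limma 3.58.1 model (R 4.3.3) held the 8 group means of all arrays, followed by eBayes and Benjamini-Hochberg adjustment across the 18820 genes. Genes were called at an adjusted p under 0.05, and every adjusted p is from this fit unless another setting is named. Changes carry standard errors of the fit. The procedure was tested on simulated data. Exact two-sided permutation tests were an alternative and are given unadjusted. Arrays count no reads, so their number limits the precision. Arrays of 1 mouse entered as separate samples, which makes p-values too small where mice repeat.

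The genes and lists were chosen with earlier results of these data known. Per list and tumor to NTL comparison, the text names up to 3 called genes with the largest rise and up to 2 with the largest fall. A gene so named is also given for the other models where it was called. The similarity search was meant for Ccnb1, and Ccnb2 took its place after the probe sets were seen. Same-numbered replicates deviated together (r above 0.1 in every pair) for LT tumors and shared controls alone (0.137 to 0.233), and the labels state no shared origin. Alternatives were centring arrays, averaging probe sets or arrays of 1 mouse, leaving out dim genes or single arrays, fitting the compared groups alone, a variance trend, a replicate block, and the Xist class as a covariate.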

Additional observations from a re-analysis of the deposited data

Results flagged for a closer look

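In groups of 4 to 10 arrays, a value was singled out when its gap to the nearest other array exceeded Dixon's critical value for the group's range. This held for 9 of 48 groups of values, where chance gives about 1 in 20 for each. The 48 reuse the same arrays across genes and are not independent, so no excess over chance can be read from the count. Ccnd1 was 8.16 in LT NTL replicate 2, low in its group, and 10.7 in shared control replicate 3, high in its group. Both arrays differ from the rest of their group in Xist. Cdkn2c was 5.79 in LT NTL replicate 2, also low, and 8.79 in MYC tumor replicate 3, which was high. Ccne1 was 6.59 in MYC tumor replicate 4, low among 5 tumors. DEN control replicate 3, the control with high Xist, was low for Ccna2 (5.25) and for Ccnb2 (5.99). Ccna2 was 5.29 in LT NTL replicate 3, which was low, and Ccnb2 was 7.76 in DEN NTL replicate 2, which was high. The tumor minus NTL change of Ccnd2 was 1.06 higher in LT than in MYC, the 1 difference between models called among 24 tested. Of all genes, 12.4% were called either way between LT and MYC, 15.1% between DEN and MYC and 13.9% between DEN and LT. With the LT and MYC groups fitted alone, the Ccnd2 call was lost (limma, adjusted p = 0.0669).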

How the results depend on the processing

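Over the alternatives, 1755 fitted changes kept their direction where called and their side of the threshold. Another 63 lost a call, 24 gained one and none reversed. These counts cover the 8 genes in every comparison and also Cdk19 in DEN and MYC tumors against NTL. DEN tumor against NTL kept 7 calls in each fit that left out an array. Left-out arrays gave 6 to 7 calls in DEN tumors against controls, 1 to 5 in LT tumors against NTL, 1 to 6 in LT tumors against shared controls, 4 to 6 in MYC tumors against NTL, and 0 to 1 in LT NTL against shared controls. Between models they gave 0 to 2 (DEN and MYC), 1 to 2 (LT and MYC) and 0 to 1 (DEN and LT). With arrays of 1 mouse averaged, calls numbered 2 for LT tumors against NTL, 2 against shared controls, 1 between DEN and MYC and 2 between LT and MYC. With only the compared groups they numbered 1, 0, 2 and 0 in the same order. The Xist covariate left 0 calls for LT tumors against shared controls and gave 1 between DEN and MYC (Ccnd1, with an unchanged estimate). Centring the arrays, or averaging probe sets, gave 1 call between DEN and LT. Exact permutation at an unadjusted p under 0.05 gave 4 genes for DEN NTL against controls (Ccna2, Ccnb2, Cdk1 and Cdkn2c). It gave 1 for LT NTL (Cdkn1b) and 0 for LT tumors against controls. These counts were the same over arrays and over mice. For LT tumors 2 mice against 4 allow no p below 0.0667, so the count over mice was fixed in advance. The share of all genes at this threshold was not computed, so no background stands beside these counts. With the replicate block, 7 calls stood in DEN tumors against controls (Ccnd1 gained, adjusted p = 0.0318) and 5 in LT tumors against shared controls, and the block changed no other count. Over all genes, LT tumors against NTL gave 3838 calls, but 6217 after centring, 2311 with mice averaged and 615 with only these groups. Against shared controls the count was 3107, but 6621, 1616 and 0, and 1273 with the Xist covariate. The causes were not tested.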
